A study of Arabidopsis thaliana with 6 samples.

Results

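The class II trehalose phosphate synthase genes of Arabidopsis thaliana were described in seedlings of the mutant line cnd1-3 and of the wild type Col-0. The members were chosen by locus: TPS5 (AT4G17770), TPS6 (AT1G68020), TPS7 (AT1G06410), TPS8 (AT1G70290), TPS9 (AT1G23870), TPS10 (AT1G60140) and TPS11 (AT2G18700), 7 of the 32948 genes in the table. The series title ties CND1 to genome stability in the nucleus and the chloroplast, and its design sets mutant transcript levels against those of wild type plants. Poly(A)-selected RNA was sequenced from 3 libraries of cnd1-3 and 3 of Col-0. The labels name the cnd1-3 allele and no other allele, agent or treatment in either genotype. The sources used here give neither the locus of CND1 nor the kind of mutation, plant age or growth conditions, and the genotype labels could not be checked against a mutated gene. Whether the 3 libraries of a genotype are separate plants is not stated, so p-values cover only the spread between these libraries, which may be technical.

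Trehalose phosphate synthases of class I join glucose 6-phosphate and UDP-glucose into trehalose 6-phosphate, a sugar phosphate that tracks sucrose in plants. Trehalose phosphate phosphatases (TPP) then remove the phosphate, and trehalase splits the trehalose that is formed. Trehalose 6-phosphate inhibits SnRK1, the kinase complex that plants use to respond to a shortage of carbon. The class II proteins carry a synthase-like and a phosphatase-like domain, and in Arabidopsis most of them have shown little or no catalytic activity of their own. Their transcripts are known to respond to sugar: TPS5 is raised by sucrose, and TPS8 to TPS11 rise when carbon is short.

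Values are FPKM, the reads of a gene scaled to its length and to the reads of its library. The length that fits the values is that of all annotated exons of a gene, so comparisons of levels between genes depend on the annotation. The depth recovered from the FPKM was 22125814 to 23081866 reads in the cnd1-3 libraries and 23290031 to 30455907 in the Col-0 libraries, so every mutant library was shallower. The part of depth in the results was not tested. The 4 leaf mesophyll markers summed to 29003 to 31222 FPKM in cnd1-3 and 28785 to 32336 in Col-0. Most of each sum came from RBCS1A, at 22960 ± 736 FPKM in cnd1-3 and 21014 ± 2027 FPKM in Col-0 (limma adjusted p = 0.45). The other 3 had log2 fold changes below 0. One of them, the light-harvesting gene LHCB1.1, fell to 1532 ± 254 FPKM in cnd1-3, against 3569 ± 804 FPKM in Col-0 (limma adjusted p = 0.00373), and it has near-identical copies among which reads may be split. The 4 root markers summed to only 0.025 to 0.139 FPKM in cnd1-3 and 0 to 0.0475 in Col-0. The root gene PYK10 averaged 0.0163 FPKM in cnd1-3 and was listed at 0 in Col-0, and the endodermis gene CASP1 averaged 0.065 FPKM in cnd1-3 and 0.0158 FPKM in Col-0. The markers that define roots were thus at or near 0 in libraries labelled as seedling. The 4 flower markers summed to 0.125 to 0.283 FPKM in cnd1-3 and 0.201 to 0.237 in Col-0. Among these the floral organ gene AG averaged 0.194 FPKM in both genotypes and AP3 was listed at 0 in cnd1-3 and at 0.0118 on average in Col-0. The 3 seed storage and oil body markers, CRA1 and SESA3 among them, were listed at 0 in all 6 libraries.

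In cnd1-3 the transcripts of TPS11 and TPS8 were higher than in Col-0, by 1.82-fold and 1.72-fold in mean FPKM. The other 5 members did not pass the test, and TPS5 had the only log2 fold change below 0 in the family. With 2 of 7 members called higher, the share in the family stood beside 3.5% of the 17096 tested genes called higher. For lower calls the family count was 0, beside 7.59% of the tested genes. The share of all genes called higher depended on scaling: it was 5.51% after median-ratio scaling, with 2 members higher, and 5.73% after quantile normalization, with 3. The test was limma on log2 of FPKM plus 0.5, with p-values adjusted over all 17096 genes by Benjamini and Hochberg and a threshold of 0.05. In the family, 3 members had an unadjusted p under 0.05, beside 28.6% of tested genes, and limma's voom on recovered reads called 2 higher and 1 lower, beside 4.07% and 8.53% of the genes it tested. The family median of the log2 fold change was 0.23, with 6 of 7 values above 0. Over all tested genes the median was -0.05, and 40.1% of the values lay above 0. A bulk sample cannot tell fewer cells of a type from less RNA per cell.

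**Figure D1:**
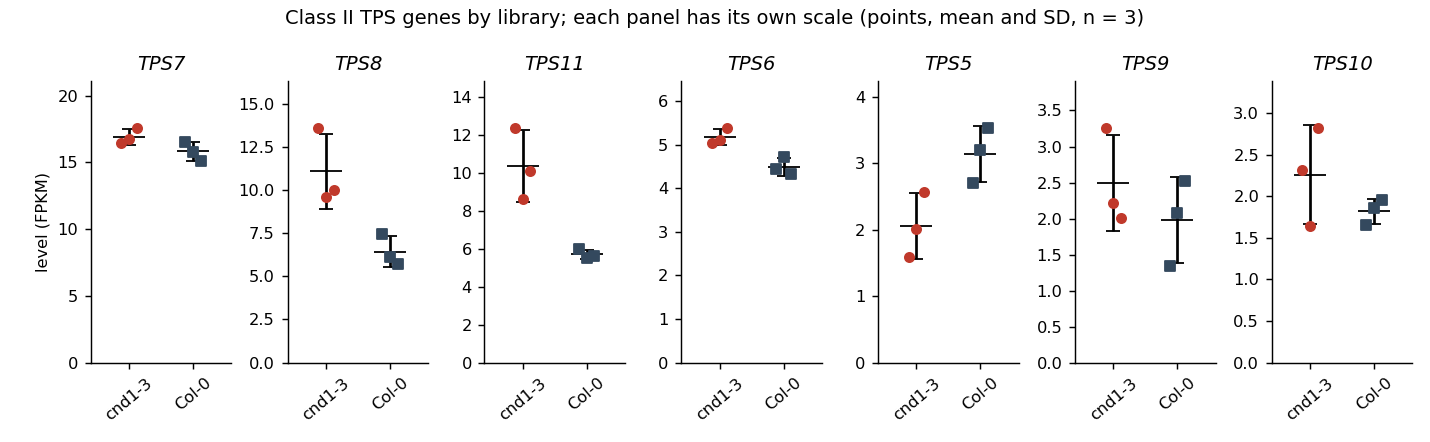
Level of each class II TPS gene in FPKM (vertical axes, each from 0 with its own scale), with cnd1-3 at the left and Col-0 at the right of each panel. Points are libraries, and the bars give the mean and SD of 3. The cnd1-3 points of TPS8, TPS11 and TPS6 all lie above the Col-0 points, and those of TPS5 all lie below.

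All 7 genes have 3 coding exons in the TAIR10.1 annotation and coding lengths of 2556 to 2604 bases, while the class I gene TPS1 has 17 coding exons. TPS6, TPS7, TPS8, TPS9 and TPS10 lie on chromosome 1, TPS11 on chromosome 2 and TPS5 on chromosome 4. Between class II members the aligned coding sequences were 64.4% to 81.1% identical, and between a class II and a class I gene 57.3% to 60.7%. The closest pair was TPS8 and TPS9, at 81.1%. The longest run of bases that any 2 members share without a mismatch was 32 bases, far shorter than the 150 base reads named in the labels. That run, in the coding sequences of TPS8 and TPS9, shows how short the identical stretches of the closest relatives are:
TPS8 and TPS9: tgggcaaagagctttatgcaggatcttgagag

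TPS11 (AT2G18700, chromosome 2, 8108898 to 8112010, plus strand) had the largest change of the family. It had 12.3, 8.61 and 10.1 FPKM in the cnd1-3 libraries, against 5.98, 5.5 and 5.6 FPKM in the Col-0 libraries. The genotypes did not overlap, and the Col-0 values lay close together while the first mutant library was the highest. The means were 10.3 ± 1.88 FPKM in cnd1-3 and 5.69 ± 0.252 FPKM in Col-0 (SD, n = 3 each). The log2 fold change was 0.80 (SE 0.12, 95% interval 0.51 to 1.08, limma adjusted p = 0.00554). By size it ranked 132nd among the 598 genes called higher. The call of TPS11 held in all 19 alternatives, with log2 fold changes of 0.67 to 0.91 and adjusted p-values of 0.0017 to 0.0287.

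TPS8 (AT1G70290, chromosome 1, 26470795 to 26474833, minus strand) followed the same pattern. It had 13.6, 9.61 and 10.01 FPKM in the cnd1-3 libraries, against 7.44, 6.09 and 5.73 FPKM in the Col-0 libraries. Again the genotypes did not overlap, and the first mutant library stood above the others. The means were 11.1 ± 2.19 FPKM in cnd1-3 and 6.42 ± 0.901 FPKM in Col-0 (SD, n = 3 each). The log2 fold change was 0.73 (SE 0.14, 95% interval 0.41 to 1.06, limma adjusted p = 0.0155), which ranked 161st among the genes called higher. Without Col-0 replicate 2 TPS8 lost its call, at a log2 fold change of 0.70 (adjusted p = 0.061). It kept the call in the other 18 alternatives, without cnd1-3 replicate 1 among them (0.58, adjusted p = 0.0377).

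The windows of 250 bases before the annotated starts of TPS8 and TPS11, the pair that rose, and of TPS9, the closest relative of TPS8 in coding sequence, are shown from the RefSeq assembly TAIR10.1. They lie at chr1:26474834-26475083, minus strand, at chr2:8108648-8108897, plus strand and at chr1:8431929-8432178, plus strand. Capitals mark 4 motifs searched on both strands: CACGTG (the G-box), ACGTG (its core, which the G-box contains), TATCCA and GATAAG.
TPS8: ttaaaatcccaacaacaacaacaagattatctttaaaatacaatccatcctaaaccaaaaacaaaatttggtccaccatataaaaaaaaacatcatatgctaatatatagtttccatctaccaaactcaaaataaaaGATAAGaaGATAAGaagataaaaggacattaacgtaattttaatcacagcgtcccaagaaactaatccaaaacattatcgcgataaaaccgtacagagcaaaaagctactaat
TPS11: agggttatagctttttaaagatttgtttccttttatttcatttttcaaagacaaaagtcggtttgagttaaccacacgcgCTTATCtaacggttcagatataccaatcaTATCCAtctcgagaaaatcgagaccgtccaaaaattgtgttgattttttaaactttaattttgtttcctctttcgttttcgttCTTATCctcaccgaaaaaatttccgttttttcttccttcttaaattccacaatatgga
TPS9: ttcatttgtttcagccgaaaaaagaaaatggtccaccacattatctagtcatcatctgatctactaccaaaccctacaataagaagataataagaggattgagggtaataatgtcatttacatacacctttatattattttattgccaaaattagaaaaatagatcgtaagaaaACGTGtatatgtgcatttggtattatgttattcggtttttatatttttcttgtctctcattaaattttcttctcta

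GATAAG was found in the windows of TPS8, TPS11 and TPS6, and in 12.4% of 32546 windows of the same length before genes of the table. In TPS8 it occurred at 113 and 105 bases before the start on the coding strand, and in TPS11 at 170 and 58 bases before the start on the other strand. TATCCA was found in TPS11, TPS6 and TPS10 and in 13.4% of all windows. ACGTG was found in TPS6 and TPS9 and in 21.8% of all windows, and the full G-box in TPS6 and in 5.9%. The windows of TPS5 and TPS7 held none of the 4 motifs. These matches describe the letters in the windows only.

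TPS5 (AT4G17770, chromosome 4, 9876172 to 9880386, plus strand) had the opposite sign. It had 1.59, 2.01 and 2.57 FPKM in the cnd1-3 libraries, against 2.7, 3.19 and 3.53 FPKM in the Col-0 libraries. The genotypes did not overlap, but the highest mutant value and the lowest Col-0 value lay close together. The means were 2.06 ± 0.491 FPKM in cnd1-3 and 3.14 ± 0.418 FPKM in Col-0 (SD, n = 3 each). The log2 fold change was -0.52 (SE 0.16, 95% interval -0.89 to -0.16), with an unadjusted p of 0.0105 and a limma adjusted p = 0.0719, above the threshold. TPS5 passed without cnd1-3 replicate 3 (-0.66, adjusted p = 0.0452) and by voom on recovered reads (-0.61, adjusted p = 0.0404). It rests on few reads, 121 to 202 per cnd1-3 library and 280 to 286 per Col-0 library. Its end overlaps AT4G17780 on the opposite strand by 128 bases, and that gene was listed at 0 in all 6 libraries.

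TPS7 (AT1G06410), the most abundant member, showed the smallest difference. It had 16.4, 16.7 and 17.6 FPKM in the cnd1-3 libraries, against 16.6, 15.8 and 15.1 FPKM in the Col-0 libraries, and the genotypes overlapped. Its log2 fold change was 0.09 (SE 0.07, 95% interval -0.07 to 0.26, limma adjusted p = 0.424). The upper bound of this interval lay below the lower bound of that of TPS8.

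TPS6 (AT1G68020) had 5.03, 5.1 and 5.38 FPKM in the cnd1-3 libraries, against 4.44, 4.72 and 4.32 FPKM in the Col-0 libraries. The mutant values all lay above those of Col-0, by a small margin. The log2 fold change of TPS6 was 0.18 (SE 0.09, 95% interval -0.01 to 0.38, limma adjusted p = 0.2), and it passed only after quantile normalization (0.29, adjusted p = 0.0452). TPS6 overlaps AT1G68030 on the opposite strand by 207 bases, and the sources used here do not say whether the libraries keep the strand. AT1G68030 averaged 1.76 ± 0.268 FPKM in cnd1-3 and 0.967 ± 0.357 FPKM in Col-0 (adjusted p = 0.0706), and its part in the TPS6 values was not tested.

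TPS9 (AT1G23870) and TPS10 (AT1G60140) were the lowest members in Col-0, and TPS9 varied widely in both genotypes. TPS9 had 3.26, 2.22 and 2.01 FPKM in the cnd1-3 libraries, against 1.35, 2.07 and 2.53 FPKM in the Col-0 libraries. TPS10 had 2.31, 1.64 and 2.82 FPKM in the cnd1-3 libraries, against 1.66, 1.86 and 1.95 FPKM in the Col-0 libraries. For both the genotypes overlapped. The log2 fold change was 0.28 for TPS9 (SE 0.21, 95% interval -0.21 to 0.76, limma adjusted p = 0.432) and 0.23 for TPS10 (SE 0.17, 95% interval -0.16 to 0.61, adjusted p = 0.418). These intervals include 0 and, for TPS9, a rise as large as that of TPS8. The coefficient of variation of TPS9 was 26.7% in cnd1-3 and 30% in Col-0, where counting alone would give 7.75% in cnd1-3 and 8.08% in Col-0. The spread of TPS9 between libraries therefore exceeded counting error in both genotypes. For TPS10 it was 26.3% in cnd1-3 and 8.22% in Col-0, where counting alone would give 6.71% in cnd1-3 and 6.9% in Col-0. The spread of TPS6 did not exceed counting error, at 3.58% in cnd1-3 and 4.57% in Col-0, where counting alone would give 4.91% in cnd1-3 and 4.83% in Col-0.

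In all, 4 of the 7 members had values that did not overlap between genotypes, TPS6, TPS8 and TPS11 upward and TPS5 downward. Among all tested genes 33.9% had such values, 12.3% upward and 21.5% downward.

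**Figure D2:**
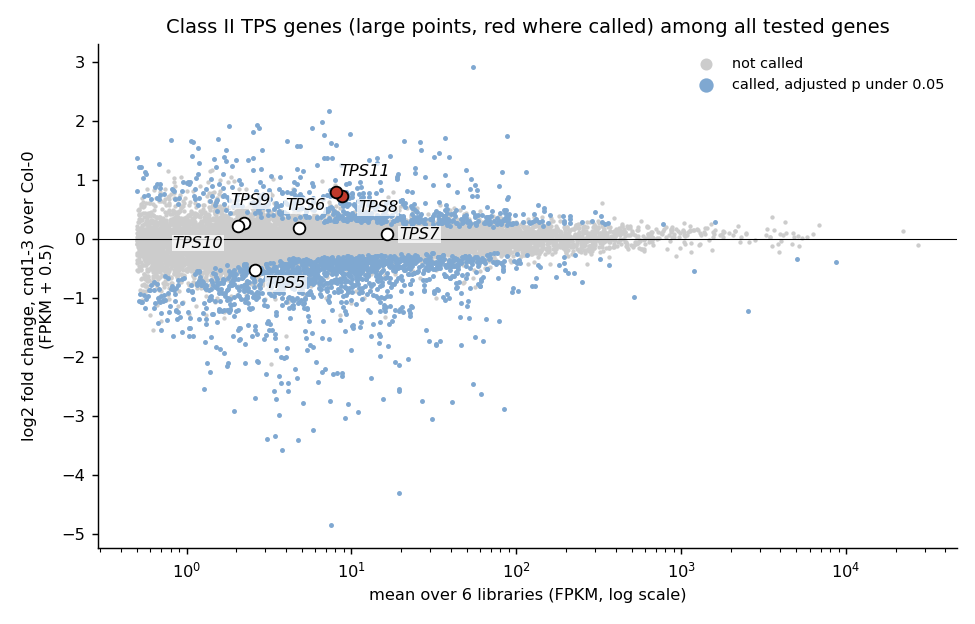
Log2 fold change of cnd1-3 over Col-0 (vertical axis, on FPKM plus 0.5) against the mean level over 6 libraries in FPKM (horizontal log axis) for the 17096 tested genes. Large points are the class II TPS genes, red where called. TPS8 and TPS11 lie together at 0.73 and 0.80, and TPS5 lies at -0.52 and was not called.

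The order of levels was much alike in both genotypes, apart from TPS5. In cnd1-3 the order of mean FPKM was TPS7 (16.9), TPS8 (11.1), TPS11 (10.3), TPS6 (5.17), TPS9 (2.5), TPS10 (2.26) and TPS5 (2.06). In Col-0 it was TPS7 (15.8), TPS8 (6.42), TPS11 (5.69), TPS6 (4.49), TPS5 (3.14), TPS9 (1.98) and TPS10 (1.82). TPS8 and TPS11 overlapped in both genotypes, as did TPS9 and TPS10, so their order is not resolved. In cnd1-3 TPS10 also overlapped TPS5, which in Col-0 stood above both TPS9 and TPS10 with no overlap. The order and the shares also rest on annotated exon lengths. These were 4361 bases over 6 transcripts for TPS10 and 2973 bases over 1 for TPS9. TPS10 had more recovered reads than TPS9 in every library but the lower mean FPKM. The 7 members summed to 54.5, 45.9 and 50.4 FPKM in the cnd1-3 libraries, against 40.1, 39.2 and 38.8 FPKM in the Col-0 libraries. TPS7 made up 30.1% to 36.4% of that sum in cnd1-3 and 39% to 41.3% in Col-0. TPS11 made up 18.7% to 22.6% in cnd1-3 and 14% to 14.9% in Col-0.

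Whether members changed differently was read from the log2 ratio of 2 members within each library, for all 21 pairs. The ratios did not overlap between genotypes for 12 pairs. The 21 pairs reuse 7 genes, so the 12 are not separate results. All of the 12 involve TPS5, TPS6, TPS8 or TPS11, whose own values did not overlap. The share of such pairs among other genes was not computed. Each of the 12 pairs gave an exact permutation p = 0.1 (two-sided), the smallest that 3 against 3 libraries allow, and an adjusted p = 0.175 over the 21 pairs. This test cannot reach the threshold with 3 libraries a genotype, so no pair was called different or alike by it. TPS7 over TPS8 averaged 0.61 in cnd1-3 and 1.24 in Col-0, and TPS5 over TPS11 differed by -1.32 between genotypes, the largest difference of the 21. TPS5 over TPS6, its closest relative in coding sequence at 70.6% identity, differed by -0.71. TPS8 over TPS11 did overlap, with a difference of -0.06 (exact permutation p = 0.5). TPS8 over TPS9 also overlapped, with a difference of 0.45 (exact permutation p = 0.4).

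**Figure D3:**
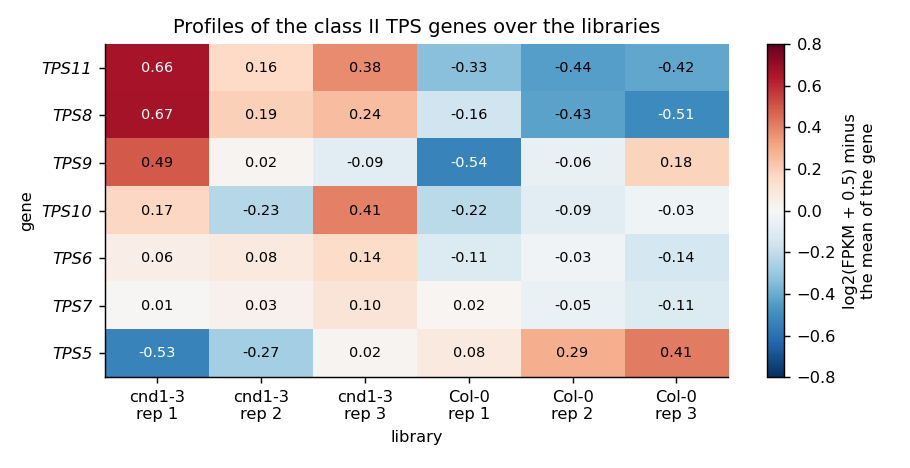
Profile of each class II TPS gene (rows) over the 6 libraries (columns, cnd1-3 first), as log2 of FPKM plus 0.5 minus the mean of the gene over the libraries. TPS11 and TPS8 are highest in cnd1-3 replicate 1, at 0.66 and 0.67, where TPS5 is lowest, at -0.53.

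Likeness of profiles was measured as the mean absolute difference of these centred log2 values over the 6 libraries, so that 0 is identity. The measure is not scaled to the spread of a gene, so genes that vary little, such as TPS6 and TPS7, lie close by it. TPS8 and TPS11 differed by 0.07, although their coding sequences are only 66% identical, while TPS8 and TPS9 differed by 0.35. TPS6 and TPS7 differed by 0.05, and the most unlike pair was TPS5 and TPS11, at 0.66. Among 10918 tested genes with a mean of at least 5 FPKM, the gene nearest to both TPS8 and TPS11 was THE1 (AT5G54380), which codes for the receptor kinase THESEUS1 of cell wall sensing. THE1 lay at 0.03 from TPS8 and 0.07 from TPS11, and averaged 18.1 FPKM in cnd1-3 and 10.2 FPKM in Col-0. Next to TPS8 came AT1G61100 and FLA9, a fasciclin-like arabinogalactan protein gene, at 0.06 and 0.07. Next to TPS11 came TPS8 itself and AT5G52810, at 0.07 and 0.09. The genes nearest to TPS5 were AT1G11700, AT1G78070 and AT5G52540, at 0.05, 0.05 and 0.06. TPS7 lay nearest to AT5G17560, AT4G37080 and AT2G44310, at 0.01, 0.01 and 0.02. TPS6 lay nearest to emb1441, the shikimate kinase gene SK2 and GGH1, at 0.01, 0.02 and 0.02. TPS10 lay nearest to J8, PANK1 and AT3G11770, at 0.05, 0.05 and 0.06. No gene came as close to TPS9, whose nearest were BZIP9, AT5G03285 and AT3G05730, at 0.11, 0.12 and 0.14. These distances describe the 6 libraries only.

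Of the enzymes around the class II proteins, 1 trehalose phosphate phosphatase gene was higher in cnd1-3. TPS1, the class I synthase that makes trehalose 6-phosphate, averaged 4.76 ± 0.164 FPKM in cnd1-3 and 4.04 ± 0.556 FPKM in Col-0 (SD, n = 3 each). Its log2 fold change of 0.22 did not pass (SE 0.11, limma adjusted p = 0.229), and TPS1 overlaps 2 annotated genes on the opposite strand. The other class I genes, TPS2, TPS3 and TPS4, were listed at 0 in all 6 libraries. Of 10 phosphatase genes 4 were tested, of which 1 rose, 0 fell and 3 did not pass, beside 3.5% of all tested genes higher and 7.59% lower. Their median log2 fold change was -0.09, and that of all tested genes -0.05. TPPA (AT5G51460), which codes for 1 of these phosphatases, had 6.77, 7.02 and 5.44 FPKM in the cnd1-3 libraries, against 3.83, 3.92 and 3.3 FPKM in the Col-0 libraries. The genotypes did not overlap, and the log2 fold change was 0.72 (SE 0.12, limma adjusted p = 0.00696), close to those of TPS8 and TPS11. TPPA kept its call in all 19 alternatives, and 1 other annotated gene overlaps it in antisense. The trehalase gene TRE1 lay below the minimum level, at 0.184 ± 0.0731 FPKM in cnd1-3 and 0.133 ± 0.0195 FPKM in Col-0.

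In cnd1-3, 2 genes annotated as regulatory subunits of SnRK1 were higher, and no other tested gene of its regulatory or catalytic subunits was called. Of 9 tested genes for SnRK1 subunits and activating kinases 2 rose, 0 fell and 7 did not pass, beside 3.5% of all tested genes higher and 7.59% lower. Their median log2 fold change was -0.10, and that of all tested genes -0.05. KINB1 (AT5G21170), a beta subunit gene, had 14.9, 11.1 and 12.7 FPKM in the cnd1-3 libraries, against 8.45, 8.5 and 9.45 FPKM in the Col-0 libraries. Its values did not overlap, and the log2 fold change was 0.52 (SE 0.11, limma adjusted p = 0.0216). KING1 (AT3G48530), annotated as a gamma subunit gene, averaged 18.2 ± 1.08 FPKM in cnd1-3 and 13.6 ± 1.88 FPKM in Col-0 (0.42, SE 0.10, adjusted p = 0.0352). KINB1 was not called when cnd1-3 replicate 1 or 3 was left out (adjusted p = 0.0669 or 0.0564), nor when Col-0 replicate 1 or 2 was (0.0623 or 0.0751). KING1 was not called when cnd1-3 replicate 1, 2 or 3 was left out (0.0866, 0.0765 or 0.102), nor when Col-0 replicate 1 or 2 was (0.0894 or 0.108). Nor did KING1 pass in the fit of all genes above 0 (0.0598) or in that without an intensity trend (0.062). The catalytic subunit gene KIN12 was listed at 0 in all 6 libraries and was not tested. The catalytic subunit genes KIN10 and KIN11 did not pass, at -0.16 for KIN10 (adjusted p = 0.258) and -0.05 for KIN11 (adjusted p = 0.707). Nor did the other regulatory subunit genes, KINB2 at -0.14, KINB3 at -0.14 and SNF4 at -0.10 (limma adjusted p = 0.329, 0.364 and 0.491). GRIK2, the gene of an activating kinase, had 17.6 ± 0.948 FPKM in cnd1-3 and 20.9 ± 1.05 FPKM in Col-0. Its values did not overlap and lay lower in cnd1-3, and it did not pass (log2 fold change -0.25, SE 0.07, limma adjusted p = 0.0678).

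The group C and S1 bZIP factors act with SnRK1 in the response to low energy. By limma 0 of 8 tested members were called, beside 11.1% of all tested genes. Voom also called 0, beside 4.07% higher and 8.53% lower of the genes it tested. Of the 8, 7 had log2 fold changes above 0, beside 40.1% of all tested genes. Their median was 0.07, and that of all tested genes -0.05. An unadjusted p under 0.05 was found for 1 of the 8, beside 28.6% of all tested genes. That gene was BZIP63, named after its values were seen, with 10.3 ± 3.18 FPKM in cnd1-3 and 6.75 ± 0.765 FPKM in Col-0 (log2 fold change 0.53, 95% interval 0.08 to 0.98, limma adjusted p = 0.116). BZIP2 had mean levels of 99.3 ± 4.36 FPKM in cnd1-3 and 93 ± 6.11 FPKM in Col-0 (limma adjusted p = 0.423). BZIP53 averaged 55.3 ± 5.7 FPKM in cnd1-3 and 55 ± 6.82 FPKM in Col-0 (adjusted p = 0.966).

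Among genes known to rise in the dark or under sugar starvation, 3 of 6 tested members rose in cnd1-3, 0 fell and 3 did not pass, beside 3.5% of all tested genes higher and 7.59% lower. The median log2 fold change of the 6 was 0.81, with 4 values above 0 and 2 below. Over all tested genes the median was -0.05, with 40.1% above 0. DIN10 (AT5G20250), a raffinose synthase-like gene, had 80.04, 47.4 and 45.5 FPKM in the cnd1-3 libraries, against 20.7, 19.4 and 22.3 FPKM in the Col-0 libraries. SEN5 (AT3G15450), a dark-induced gene, had 73.1, 36.2 and 42.3 FPKM in the cnd1-3 libraries, against 14.2, 19 and 18.6 FPKM in the Col-0 libraries. In both genes, as in TPS8 and TPS11, cnd1-3 replicate 1 was the highest library and the genotypes did not overlap. The log2 fold changes were 1.40 for DIN10 (SE 0.19, limma adjusted p = 0.00305) and 1.46 for SEN5 (SE 0.23, adjusted p = 0.00613), and both held their calls in all 19 alternatives. Both genes overlap another on the opposite strand. SEN1 (AT4G35770), also dark-induced, averaged 4.27 ± 3.29 FPKM in cnd1-3 and 0.77 ± 0.652 FPKM in Col-0 (1.81, SE 0.46, adjusted p = 0.0402). It rests on few reads, 60, 77 and 241 in the cnd1-3 libraries and 16, 13 and 46 in the Col-0 libraries. SEN1 was not called when cnd1-3 replicate 2 or 3 was left out (adjusted p = 0.0654 or 0.0713), nor when Col-0 replicate 1 or 2 was (0.107 or 0.134). The same was true with no minimum level (0.0813), no intensity trend (0.0684) or robust fitting (0.0709). DIN6, the asparagine synthetase gene of this list, named after its values were seen, averaged 1.92 ± 0.565 FPKM in cnd1-3 and 1.56 ± 0.406 FPKM in Col-0 (adjusted p = 0.517). The 2 tested members below 0 were DRM2 (AT2G33830) and BGAL4 (AT5G56870), also named after their values were seen. DRM2 averaged 116 ± 24.3 FPKM in cnd1-3 and 133 ± 11.5 FPKM in Col-0 (log2 fold change -0.21, limma adjusted p = 0.355). BGAL4 had a log2 fold change of -0.02 (adjusted p = 0.958).

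Of the sugar-induced genes 3 of 6 were tested, of which 1 rose, 1 fell and 1 did not pass, beside 3.5% of all tested genes higher and 7.59% lower. Their median log2 fold change was -0.13. APL3 (AT4G39210), a large subunit of the starch enzyme ADP-glucose pyrophosphorylase, averaged 14.4 ± 1.13 FPKM in cnd1-3 and 10.8 ± 0.359 FPKM in Col-0 (log2 fold change 0.40, SE 0.08, limma adjusted p = 0.0174). CHS (AT5G13930), the chalcone synthase of flavonoid synthesis, averaged 4.79 ± 0.441 FPKM in cnd1-3 and 9.51 ± 2.83 FPKM in Col-0 (-0.88, SE 0.19, adjusted p = 0.0236). APL3 was not called when cnd1-3 replicate 3 or Col-0 replicate 2 was left out (adjusted p = 0.0564 or 0.0619). CHS has an antisense neighbour that overlaps it. It was not called when cnd1-3 replicate 1 or 2 was left out (0.079 or 0.0646), when Col-0 replicate 2 or 3 was (0.0711 or 0.0563), or with no minimum level (0.0543).

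**Figure D4:**
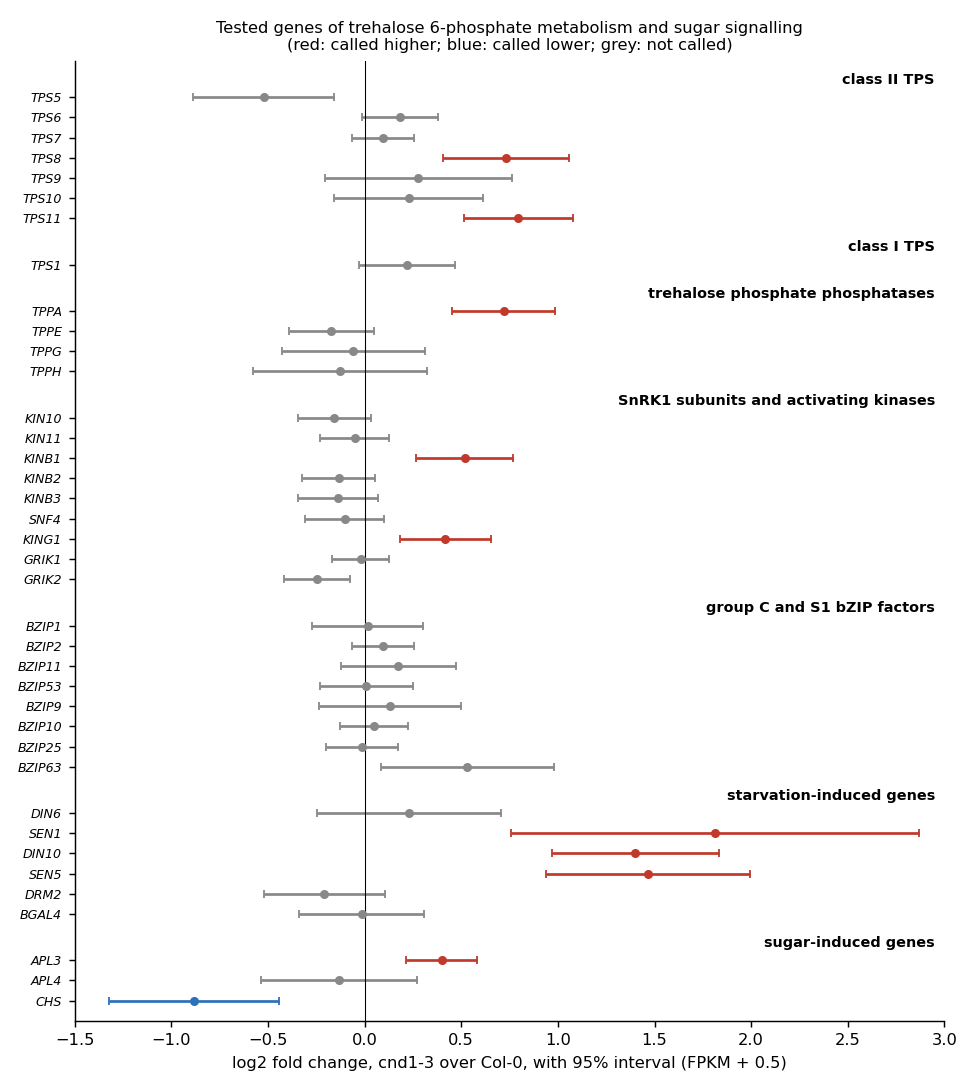
Log2 fold change of cnd1-3 over Col-0 on FPKM plus 0.5 (horizontal axis) for each tested gene of the trehalose phosphate and sugar signalling lists (rows), with its 95% limma interval. Red genes were called higher and blue lower. TPS8, TPS11 and TPPA lie between 0.72 and 0.80, below SEN5 at 1.46 and DIN10 at 1.40.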

How the data were processed

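RNA from seedlings was sequenced in 3 libraries of cnd1-3 and 3 of Col-0. The authors deposited a table of FPKM per gene and library. Per the submitters' processing notes HISAT2, featureCounts, Subread and DESeq2 were used, with the TAIR10 build. Their versions, roles and settings were not stated there. FPKM times the exon length in the TAIR10.1 annotation gave whole reads, within 0.01, for 99.3% to 99.4% of values above 0, and hence the depth. Genotypes were compared with limma 3.58.1 (R 4.3.3, intensity trend), on log2 of FPKM plus 0.5, for 17096 genes with a mean of at least 0.5 FPKM, adjusted by Benjamini and Hochberg at 0.05. Fold changes on this scale understate changes of low genes. The procedure was also run on simulated data. There the planted changes were larger than those of the family and the same dispersion (spread beyond counting) was set for every gene. That run does not show how well changes as small as those of the family are detected.

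The members, lists and tests were chosen with earlier results of these data known. Named were all 7 members and, from each list, up to 4 called genes by size of change, or else the 2 most abundant. TPS3, TPS4, RBCS1A, KIN10, KIN11, KIN12, KINB2, KINB3, SNF4, GRIK2, BZIP63, DIN6, DRM2, BGAL4 and the antisense neighbours were added after seeing values. The 3 genes nearest in profile were sought for each member. Alternatives were other pseudocounts, minimum levels, scalings and variance models, library weights, a replicate block, removal of the GC and length trend (98.8% of genes had both), voom on recovered reads and leaving out each library. Coding sequences were aligned with Biopython 1.88. Protein sequences were not used here. Python 3.11.15, pandas 2.3.3, scipy 1.17.1 and matplotlib 3.10.9 did the rest.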

Additional observations from a re-analysis of the deposited data

How the results depend on the processing

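The signs of all 7 class II log2 fold changes held in the 19 alternatives. The number of members called stayed at 2 or reached 3, apart from the fit without Col-0 replicate 2. Leaving out 1 library at a time gave 1 to 3 called members and 906 to 1848 called genes, against 1896 with all libraries. The replicate block gave 2879 called genes, and together with removal of the GC and length trend 2924, with TPS5 then called lower (adjusted p = 0.0241 and 0.0205). Whether the shared replicate numbers pair the libraries was not settled. Deviations of same-numbered libraries correlated across genes at 0.032, 0.157 and 0.263, and those of unlike-numbered libraries at -0.237 to 0.085. The highest of the latter was between cnd1-3 replicate 1 and Col-0 replicate 2, above that of the libraries numbered 1. Lower genes were 68.5% of all calls, 54.3% after median-ratio scaling and 50.5% after quantile normalization. The sign of BZIP53, which was not called, changed without cnd1-3 replicate 1, Col-0 replicate 1 or Col-0 replicate 3, with log2 fold changes of -0.0699 to 0.103 over the fits that left out a library. The causes were not tested. Among the 7 members, reads recovered per library were fewest for TPS5, TPS9 and TPS10, at 121 to 286.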
